A study of Mus musculus with 24 samples.

Results

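Complement is a blood and tissue protein system of immune defence, and its transcripts were followed here in 36 genes of the 56691 in the deposited table. The genes were taken by symbol, and each symbol matched 1 line. They comprised 9 genes of the classical pathway, 4 of the lectin pathway, 3 of the alternative pathway, the central component C3, 7 terminal components, 4 soluble regulators, 4 membrane regulators and 4 receptors. The mouse model carries endometriosis induced by surgery at 8 weeks of age, and all tissue was taken on pregnancy day 3.5. Lesions (ectopic tissue) from mice with endometriosis were labelled Pgrcre/+Rosa26mTmG/+, and there were 4 libraries at 1 month and 4 at 3 months after surgery. Eutopic uterus, the uterus in its normal place in mice with endometriosis, was labelled Rosa26mTmG/+, with 4 libraries at each time. Uterus of sham-operated mice was also labelled Rosa26mTmG/+, with 4 libraries at each time. All mice had a mixed C57BL/6 and SV129 background and all carried the Rosa26 reporter allele. Mice of the 1 month groups and sham mice at 3 months were labelled fertile, and mice with endometriosis at 3 months were labelled subfertile. Pgr-Cre acts in cells that express the progesterone receptor. The series text gives Pgrcre/+Rosa26mTmG/+ for mice with endometriosis, so the genotype of eutopic uterus is not settled. As labelled, a genotype effect and a tissue effect cannot be told apart in comparisons with lesions.

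Complement is started by 3 routes. In the classical route C1q, carried with the proteases C1r and C1s, binds antibody or other surfaces and cleaves C4 and C2. In the lectin route mannose-binding lectins or ficolins with the MASP proteases do the same, and in the alternative route factor B, factor D and properdin act together with C3 itself. All routes meet at C3, go on to C5 and end in a membrane pore of C5b, C6, C7, C8 and C9. Soluble and membrane-bound regulators limit these steps, and the fragments C3a, C5a and C3b act through receptors on myeloid cells. The liver makes most of the circulating components, macrophages make C1q, and in the rodent uterus C3 is known as an epithelial product raised by estrogen.

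Total counts lay between 45133642 and 59407134 per library. The labelled tissue was checked against marker genes. Summed macrophage markers reached 1696, 4283, 1579.9 and 3876 CPM (read counts scaled to library size) in lesion libraries 1 to 4 at 1 month, against 509.9 to 629 CPM in eutopic uterus. At 3 months they reached 286, 9513, 4076 and 8512 CPM in lesions, against 439 to 724 CPM in eutopic uterus. Lesion library 1 at 3 months stood apart from the other 3. It held 23171 CPM of ovarian steroidogenic cell markers, against 46.7 to 57 CPM in eutopic uterus, and 2402 CPM of stromal markers, against 9549 to 20937 CPM. Lesion library 2 at 3 months held 274 CPM of the ovarian markers. Lesion library 2 at 1 month held 103300.0 CPM of pancreatic acinar markers, and lesion library 2 at 3 months held 44516 CPM of skeletal muscle markers and only 48 CPM of epithelial markers. Other lesion libraries at 3 months carried skeletal muscle markers too, at 14011 and 7438 CPM in libraries 3 and 4, against 117 to 179 CPM in eutopic uterus. The part of these tissues in the results below was not tested, and calls at 3 months that changed when library 1 was left out are given both ways.

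Promoter sequences are shown for 4 of the genes that the results turn on, as the 250 bases before the transcription start on the coding strand. C1qb and Vsig4 are genes of macrophages, C3 is the point where the routes meet, and C7 had the largest change of any terminal component. RefSeq promoters on GRCm38.p6 were found for 27 of the 36 genes, and 4 short motifs were searched on both strands. Capitals mark the motif matches, 1 each in C1qb, C3 and C7 and 2 in Vsig4.
C1qb, chr4:136886201-136886450, minus strand: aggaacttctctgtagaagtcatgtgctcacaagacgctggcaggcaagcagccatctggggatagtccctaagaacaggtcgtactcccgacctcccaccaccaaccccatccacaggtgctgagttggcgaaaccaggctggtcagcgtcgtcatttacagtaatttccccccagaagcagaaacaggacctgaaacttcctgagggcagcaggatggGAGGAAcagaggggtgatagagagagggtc
Vsig4, chrX:96293439-96293688, minus strand: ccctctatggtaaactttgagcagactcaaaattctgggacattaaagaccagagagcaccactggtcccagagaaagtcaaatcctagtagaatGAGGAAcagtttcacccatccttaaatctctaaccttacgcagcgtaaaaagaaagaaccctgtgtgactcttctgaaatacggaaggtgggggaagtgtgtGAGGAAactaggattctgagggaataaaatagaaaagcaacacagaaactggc
C3, chr17:57228137-57228386, minus strand: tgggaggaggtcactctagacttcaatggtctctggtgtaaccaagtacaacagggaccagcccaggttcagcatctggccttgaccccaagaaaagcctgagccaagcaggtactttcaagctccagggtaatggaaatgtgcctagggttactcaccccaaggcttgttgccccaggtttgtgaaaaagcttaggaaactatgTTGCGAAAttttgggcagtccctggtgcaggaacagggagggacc
C7, chr15:5063774-5064023, minus strand: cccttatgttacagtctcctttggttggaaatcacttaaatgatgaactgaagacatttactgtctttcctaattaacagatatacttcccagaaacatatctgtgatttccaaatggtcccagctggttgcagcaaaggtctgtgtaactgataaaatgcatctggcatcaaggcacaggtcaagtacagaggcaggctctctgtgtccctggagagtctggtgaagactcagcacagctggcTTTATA
The capitals in C1qb and Vsig4 are GAGGAA, a core bound by the myeloid factor PU.1, starting at position -30 in C1qb and at positions -155 and -53 in Vsig4, where -1 is the base before the start. GAGGAA stood in a promoter of 5 of the 27 genes (C1qb, C1qc, C5ar2, Cd59a and Vsig4) and in 23.3% of 32851 mouse promoters of the same length. The capitals in C3 match TTGCNNAA, a C/EBP-like motif, at position -45. This motif stood in 5 of the 27 (C1rl, C1s1, C3, C5ar2 and C9) and in 9.56% of all promoters. The capitals in C7 are the reverse complement of TATAAA, at position -6, and TATAAA stood in 3 of the 27 (C3ar1, C7 and Hc) and in 12.4% of all promoters. A longer motif of the interferon-response type stood in 1 of the 27 (Cd59a) and in 2.98% of all. The 27 were counted by gene, with a match in any promoter of the gene, and the shares of all by single promoter. The 2 measures are thus unlike and do not show an excess or a lack. These matches are descriptions of letters in a window and not of binding.

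In eutopic uterus at 1 month, the level per kilobase of exon, with exon lengths from GENCODE M21, was highest for Serping1 (124 CPM per kb), C1s1 (123) and C3 (82.8). In lesions at 1 month the order was C3 (516 CPM per kb), C1qa (309), C1qb (273) and Serping1 (255). C1s1 and the inhibitor Serping1 thus led in eutopic uterus, while C3 and the C1q chains C1qa and C1qb led in lesions. Several genes were close to or at 0. Mbl1, a mannose-binding lectin made in the liver, had reads in 1 library alone, at 0.0208 CPM in eutopic library 2 at 3 months. Mbl2, the other such lectin, peaked at 1.04 CPM, and the C8 chain genes C8a and C8b at 0.447 and 0.336 CPM, each in lesion library 1 at 3 months. These 4 genes did not pass the count filter, so 32 of the 36 were tested in comparisons with lesions. Vsig4 passed only with lesions in the fit, so 31 were tested among uterine groups.

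Of the 32 genes tested, 18 were higher and 2 were lower in lesions than in eutopic uterus at 1 month by the edgeR quasi-likelihood test with Benjamini-Hochberg adjustment over all genes. Over all 22249 genes tested, 12.0% were called higher and 8.76% were called lower. Vsig4 passed the filter only through its high level in lesions, and without it 17 of 31 genes were higher at 1 month and 20 of 31 at 3 months. The median log2 fold change was 1.36 over the complement genes and -0.01 over all genes. At 3 months 21 were higher and 1 was lower, where 23.4% of all genes were called higher and 17.1% lower, and the medians were 1.65 and 0.04. All 18 genes that were higher at 1 month were higher at 3 months, which made 85.7% of the 21, and no gene was lower at both. By contrast, the 2279 genes of the whole table that were higher at both times made 85.7% of those higher at 1 month and 43.8% of those higher at 3 months, and the 1348 that were lower at both made 69.2% and 35.4% of those lower. Limma voom with sample weights further called C1ra, C1s1, Masp1, Cfd, Cfi and Cr1l higher and C9 lower at 1 month, and edgeR fitted to lesions and eutopic uterus of that time alone called C1ra, C1s1, Masp1 and Cfi. In bulk tissue a larger number of cells of a type and more transcript per cell cannot be told apart.

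**Figure D1:**
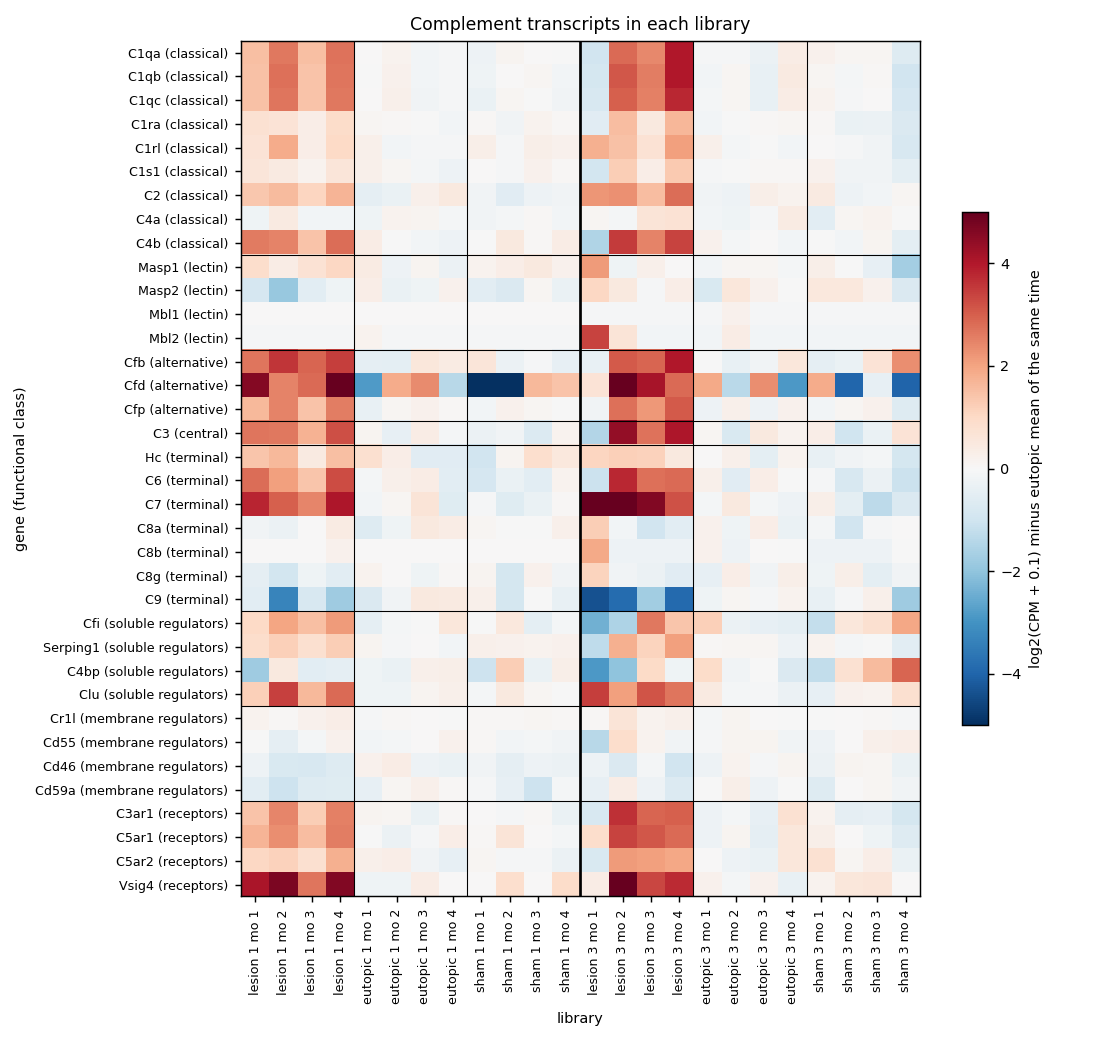
Each row is 1 of the 36 complement genes with its class and each column 1 of the 24 libraries. Colour gives log2(CPM + 0.1) minus the mean of eutopic uterus at the same time on a clipped colour scale. C1q, C2, C4b, Cfb, Cfp, C3, C6, C7, Clu and the receptors were red in the 4 lesion libraries at 1 month and in lesion libraries 2 to 4 at 3 months, while lesion library 1 at 3 months was blue for C1q, C4b and C3 and red for C2, C7 and Clu.

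The 3 C1q chain genes stand side by side on chromosome 4, C1rl, C1ra and C1s1 on chromosome 6, and C2, Cfb, C4a and C4b within the same stretch of chromosome 17. Within the classical pathway, 6 of 9 genes were higher in lesions at 1 month and 8 of 9 at 3 months. The median log2 fold changes of the 9 were 1.43 and 2.30. C1qb, which encodes 1 of the 3 chains of C1q, had 175, 426, 173 and 414 CPM in lesions at 1 month, against 63.5, 74.9, 57.7 and 60.7 CPM in eutopic uterus. At 3 months it had 30.0, 479.9, 324 and 885 CPM in lesions, against 49.8, 58.5, 42.3 and 74.3 CPM in eutopic uterus. All lesion libraries lay above eutopic uterus at 1 month, and at 3 months 3 of 4 did, with library 1 below every eutopic library. The log2 fold changes were 2.23 ± 0.56 (SE) at 1 month, with an adjusted p of 0.00932, and 2.93 ± 0.57 at 3 months, with an adjusted p of 5.17e-04. Its neighbours C1qa and C1qc, which encode the other chains, had log2 fold changes of 2.21 ± 0.55 and 2.19 ± 0.53 at 1 month and 2.84 ± 0.56 and 2.77 ± 0.54 at 3 months. Without lesion library 1 the C1qb difference at 3 months was 3.32 ± 0.36 (adjusted p = 5.38e-07).

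The substrates of the classical proteases, C4b and C2, were also higher in lesions. C4b, the main mouse C4 gene, had 389.7, 353, 174 and 443 CPM in lesions at 1 month, against 82.7, 63.8, 58.8 and 54 CPM in eutopic uterus. Its levels at 3 months were 20.9, 681, 331 and 628 CPM in lesions, against 68.9, 56.8, 60.2 and 54.9 CPM in eutopic uterus. As with C1q, library 1 at 3 months lay below all eutopic libraries and the other lesion libraries lay far above them. For C4b the log2 fold changes were 2.41 ± 0.55 at 1 month (adjusted p = 0.00588) and 2.79 ± 0.56 at 3 months (adjusted p = 6.58e-04), and 3.18 ± 0.27 without library 1. C4a, the close relative known in mice as Slp, ranged over 1.06 to 1.72 CPM in lesions and 1.05 to 1.41 CPM in eutopic uterus at 1 month, and it was not called at either time (0.02 ± 0.24 and 0.39 ± 0.24). C4a and C4b share 35.2% of the 50-base windows of the C4b transcript, so the split of reads between them is uncertain.

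C2, cleaved by C1s to form the classical C3 convertase with C4, had 9.58, 11.2, 7.85 and 12.4 CPM in lesions at 1 month, against 2.7, 2.93, 4.5 and 5.29 CPM in eutopic uterus. C2 at 3 months had 13.7, 14.4, 8.6 and 20.3 CPM in lesions, against 2.49, 2.34, 3.47 and 3.27 CPM in eutopic uterus. No lesion library overlapped eutopic uterus at either time, and library 1 at 3 months was not the lowest. For C2 the log2 fold changes were 1.43 ± 0.26 (adjusted p = 0.00166) at 1 month and 2.30 ± 0.27 (adjusted p = 6.17e-06) at 3 months.

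The proteases of the C1 complex had smaller log2 fold changes than the C1q chains. C1s1, the classical gene with the highest level, had 575, 513, 430.4 and 581 CPM in lesions at 1 month, against 450.0, 404, 357 and 323 CPM in eutopic uterus, and 186, 832, 451 and 884 CPM in lesions at 3 months, against 335, 349, 367 and 365 CPM in eutopic uterus. The groups overlapped at both times. For C1s1 the log2 fold change was 0.47 ± 0.29 at 1 month, with an adjusted p of 0.257, and 0.73 ± 0.29 at 3 months, with an adjusted p of 0.04856. That call at 3 months was lost in 6 of the 8 fits that left out 1 library, and without library 1 the difference was 1.03 ± 0.19. C1ra, which encodes C1r, had log2 fold changes of 0.69 ± 0.29 (adjusted p = 0.0963) at 1 month and 1.03 ± 0.30 (adjusted p = 0.00909) at 3 months. C1rl, a C1r-like protease, was higher at both times, by 1.11 ± 0.29 and 1.60 ± 0.30, and its lesion libraries did not overlap eutopic uterus at either time. Without lesion library 2 at 1 month the C1rl difference was 0.67 ± 0.25 and was not called (adjusted p = 0.0841, edgeR). C1ra shares 48.0% of its 50-base windows with the duplicate C1rb, and C1s1 shares 24.3% with C1s2.

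**Figure D2:**
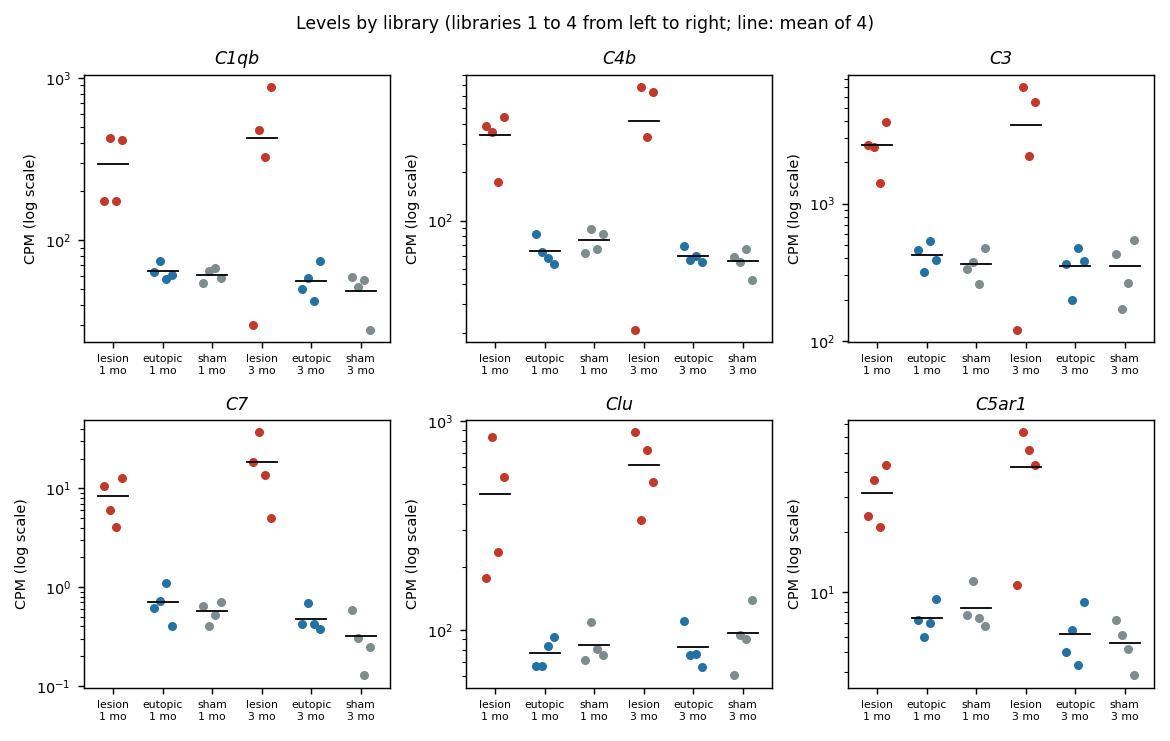
Levels in CPM on a log scale for C1qb, C4b, C3, C7, Clu and C5ar1 in the 6 groups, with 1 point per library and a line at the mean of 4. At 1 month all lesion points lie above all eutopic and sham points in the 6 panels, and at 3 months library 1, the leftmost lesion point, lies below eutopic uterus for C1qb, C4b and C3 and above it for C7, Clu and C5ar1.

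No lectin pathway gene was called in lesions against eutopic uterus, with 2 of the 4 tested, and at an unadjusted p under 0.05 there were 0 at 1 month and 1 at 3 months, where 35.3% and 49.1% of all genes were, by edgeR. DESeq2 called neither of the 2 at either time, but other fits called Masp1. Masp1, a protease that binds mannose-binding lectin, had 25.1, 17.4, 22.6 and 27.7 CPM in lesions at 1 month, against 18.1, 11.5, 14.8 and 11.1 CPM in eutopic uterus. At 3 months it had 62, 12.2, 16.7 and 14.3 CPM in lesions, against 13, 15.1, 15.2 and 13.4 CPM in eutopic uterus. Its high value at 3 months came from library 1, and the other lesion libraries lay within or near the eutopic range. For Masp1 the log2 fold changes were 0.75 ± 0.41 (adjusted p = 0.196) and 0.89 ± 0.41 (adjusted p = 0.087), and at 3 months 0.02 ± 0.29 without library 1. Masp1 was called at 1 month by voom (0.93 ± 0.18, adjusted p = 4.03e-04) and in an edgeR fit of these 8 libraries alone (0.74 ± 0.19, adjusted p = 0.0166), and at 3 months by edgeR without lesion library 2 (1.14 ± 0.41, adjusted p = 0.0362) or 4 (1.10 ± 0.42, adjusted p = 0.0470). Masp2, the protease that cleaves C4 and C2 in this pathway, stayed under 0.6 CPM in every library.

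In the alternative pathway, 2 of 3 genes were higher in lesions at both times. Cfb, whose product factor B forms the alternative C3 convertase, had 2.49, 4.76, 2.92 and 4.29 CPM in lesions at 1 month, against 0.193, 0.186, 0.496 and 0.436 CPM in eutopic uterus. It had 0.186, 3.05, 2.7 and 5.9 CPM in lesions at 3 months, against 0.27, 0.187, 0.232 and 0.462 CPM in eutopic uterus. Lesions lay above eutopic uterus in all libraries at 1 month and in 3 of 4 at 3 months. For Cfb the log2 fold changes were 3.47 ± 0.77 (adjusted p = 0.00515) and 3.35 ± 0.78 (adjusted p = 0.00206). Cfp encodes properdin, which stabilises that convertase and is made by leukocytes. It had 45.2, 83.2, 39.1 and 86.2 CPM in lesions at 1 month, against 11.3, 15.7, 16.9 and 15.3 CPM in eutopic uterus, and 13.9, 108, 72 and 135 CPM in lesions at 3 months, against 13.3, 19.1, 13.5 and 18.6 CPM in eutopic uterus. Lesion library 1 at 3 months was again the exception, inside the eutopic range. The log2 fold changes of Cfp were 2.12 ± 0.42 (adjusted p = 0.00291) and 2.35 ± 0.43 (adjusted p = 2.86e-04).

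Cfd encodes factor D, the adipocyte product adipsin that cleaves factor B. It had 241, 56, 71.7 and 372 CPM in lesions at 1 month, against 1.31, 35.4, 51.7 and 3.67 CPM in eutopic uterus and 0.0333, 0.212, 30.1 and 26.3 CPM in sham uterus. At 3 months it had 11.1, 389, 120.2 and 49.7 CPM in lesions, against 25.5, 2.66, 34.4 and 0.853 CPM in eutopic uterus and 24.9, 0.343, 5.11 and 0.333 CPM in sham uterus. Every lesion library lay above eutopic uterus at 1 month, yet within each uterine group the libraries differed by more than 10-fold. By edgeR the difference was not called, at 3.01 ± 1.62 (adjusted p = 0.191) at 1 month and 3.17 ± 1.63 (adjusted p = 0.127) at 3 months. Voom called it at 1 month, at 3.67 ± 1.26 (adjusted p = 0.0224). Summed adipocyte markers were 526, 157, 175 and 666 CPM in lesions at 1 month, against 59.2, 112, 162 and 87.3 CPM in eutopic uterus, and 387, 1687, 334 and 113 CPM in lesions at 3 months, against 103, 59.5, 129.6 and 78.3 CPM in eutopic uterus. Of 8 adipocyte markers, 0 were called at 1 month and 3 were called higher in lesions at 3 months. Cfd and the marker sum were both highest in lesion libraries 1 and 4 at 1 month and in lesion library 2 at 3 months, whereas lesion library 1 at 3 months had the lowest Cfd of the lesions beside the second highest marker sum at that time. The part of fat tissue in the Cfd values was not tested.

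**Figure D3:**
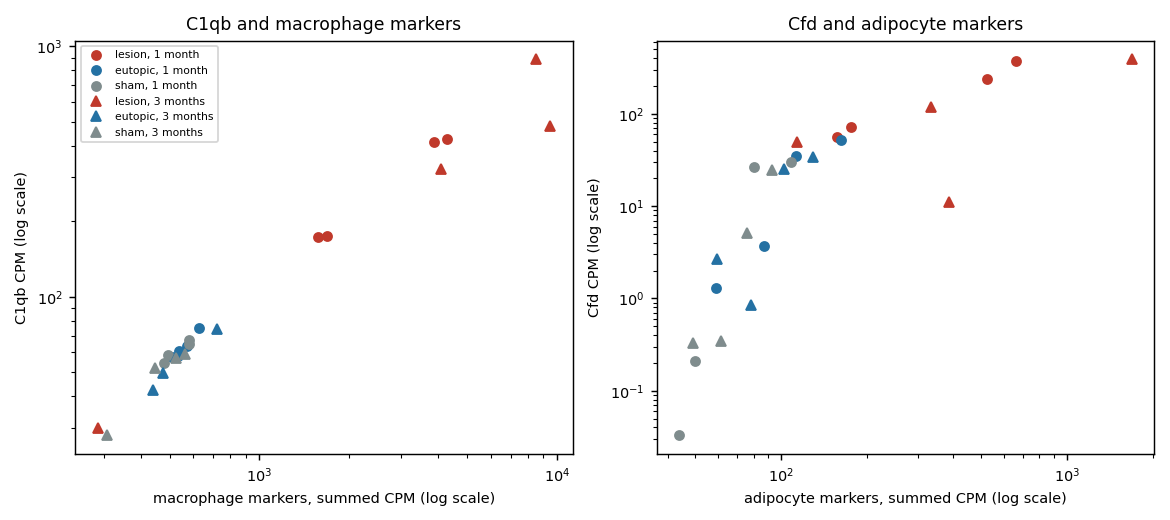
Left, C1qb CPM against the summed CPM of 14 macrophage markers, and right, Cfd CPM against the summed CPM of 8 adipocyte markers, on log axes, with 1 point per library, circles for 1 month and triangles for 3 months. Points run from lower left to upper right in both panels, and lesion library 1 at 3 months is the lesion triangle at 30.0 CPM of C1qb on the left and at 11.1 CPM of Cfd on the right.

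C3, cleaved by the convertases of all 3 routes, was higher in lesions at both times. It had 2675, 2599, 1412 and 3935 CPM in lesions at 1 month, against 462, 316, 535 and 391 CPM in eutopic uterus. C3 at 3 months had 121, 7088, 2212 and 5482 CPM in lesions, against 361, 199, 472 and 379.6 CPM in eutopic uterus. At 1 month the lowest lesion library lay above the highest eutopic library, and at 3 months libraries 2 to 4 did so while library 1 lay below all eutopic libraries. For C3 the log2 fold change was 2.65 ± 0.67 (adjusted p = 0.00993) at 1 month and 3.40 ± 0.69 (adjusted p = 7.35e-04) at 3 months. It was 3.80 ± 0.43 without library 1 and 2.89 ± 0.68 without library 2, and with only lesions and eutopic uterus at 3 months in the fit its adjusted p was 0.0522. The estrogen-raised epithelial genes Ltf, Lcn2 and Muc1 summed to 361, 1281, 890.1 and 1376 CPM in lesions at 1 month, against 68.1 to 173 CPM in eutopic uterus. At 3 months the sum was 50.8, 6.98, 2679 and 1208 CPM in lesions, against 68.8 to 281 CPM in eutopic uterus. The highest C3 level, in lesion library 2 at 3 months, therefore came with the lowest sum of these genes. Of the 3 genes, 2 were called higher at 1 month and 1 at 3 months, and their part in the C3 result was not tested.

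The terminal components divided into genes that were higher, near 0 and lower. Hc, which encodes C5, C6 and C7 were higher in lesions at both times, and C9 was lower at 3 months, out of 7 genes with 5 tested. C7, which inserts the growing complex into the membrane, had 10.6, 6.05, 4.08 and 12.6 CPM in lesions at 1 month, against 0.613, 0.729, 1.11 and 0.402 CPM in eutopic uterus. C7 at 3 months had 18.6, 36.8, 13.7 and 5.05 CPM in lesions, against 0.424, 0.685, 0.425 and 0.373 CPM in eutopic uterus. No lesion library overlapped eutopic uterus, library 1 at 3 months included. For C7 the log2 fold change was 3.55 ± 0.53 (adjusted p = 5.16e-04) at 1 month and 5.28 ± 0.58 (adjusted p = 3.32e-06) at 3 months, and 5.27 ± 0.59 without library 1.

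C6, which joins C5b before C7, had 7.2, 4.23, 2.63 and 10.1 CPM in lesions at 1 month, against 0.894, 1.17, 1.24 and 0.62 CPM in eutopic uterus. C6 at 3 months had 0.391, 14, 6.93 and 7.42 CPM in lesions, against 1.16, 0.602, 1.22 and 0.941 CPM in eutopic uterus. Unlike C7, C6 was low in lesion library 1 at 3 months. The log2 fold changes of C6 were 2.63 ± 0.63 (adjusted p = 0.00742) and 2.87 ± 0.63 (adjusted p = 0.00139). Hc was called on small differences at low levels, with 0.993 to 2.38 CPM in lesions and 0.436 to 1.31 CPM in eutopic uterus at 1 month, and its calls did not hold in most fits without 1 library. The log2 fold changes of Hc were 1.30 ± 0.40 (adjusted p = 0.0286) and 1.01 ± 0.40 (adjusted p = 0.04802). Without lesion library 1 the 3 month difference was 0.98 ± 0.42 and was not called (adjusted p = 0.0615).

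C9, whose product lines the pore, had 1.67, 0.154, 1.36 and 0.63 CPM in lesions at 1 month, against 1.42, 2.14, 3.44 and 3.32 CPM in eutopic uterus. C9 at 3 months had 0.0186, 0.0698, 0.635 and 0.0634 CPM in lesions, against 1.98, 2.49, 2.24 and 2.63 CPM in eutopic uterus. Lesions overlapped eutopic uterus at 1 month and lay below it in all libraries at 3 months. For C9 the log2 fold change was -1.42 ± 0.68 (adjusted p = 0.142) at 1 month and -3.54 ± 0.77 (adjusted p = 0.00117) at 3 months, and -3.15 ± 0.75 without library 1. C8g, the C8 gamma chain, stayed between 0.589 and 2.46 CPM in lesions and was not called. Hepatocytes are the main source of circulating C9, and their markers summed to 11.4 to 102 CPM in lesions at 3 months, against 2.81 to 12.5 CPM in eutopic uterus. Of the highest sum, in lesion library 2, 88.4 CPM was Cyp2e1, which fat also expresses. Lesion library 1 at 3 months held 15.1 CPM of Apoa1. Of 8 hepatocyte markers tested, 1 was called higher and 1 lower at each time. Their median log2 fold change was -0.93 at 1 month and 0.02 at 3 months. Among uterine groups 7 of the markers were tested. The part of liver cells in the C9 values was not tested.

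**Figure D4:**
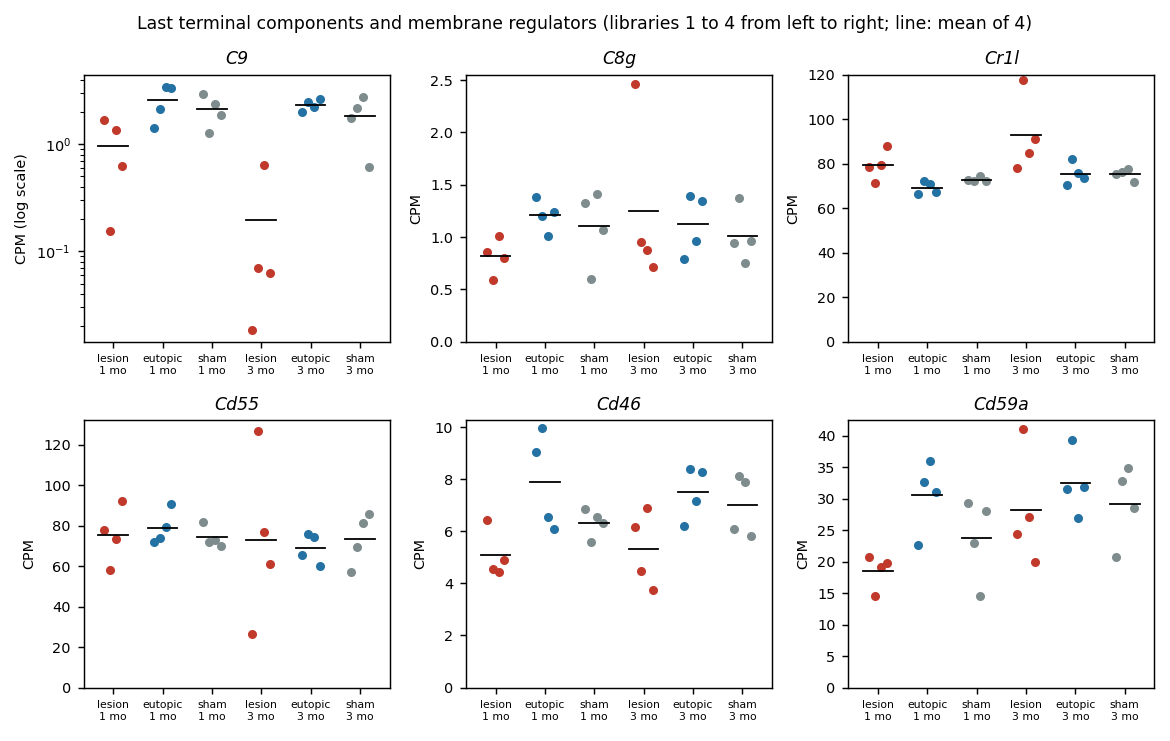
Levels for C9 on a log CPM scale, and for C8g, Cr1l, Cd55, Cd46 and Cd59a on a linear CPM scale from 0, in the 6 groups, with 1 point per library and a line at the mean of 4. C9 at 3 months is the panel in which all lesion points lie below all eutopic points, and the membrane regulators show overlapping or close groups, except Cd59a at 1 month, where lesions lie below eutopic uterus.

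Among soluble regulators, Serping1 and Clu were higher in lesions at both times, and Cfi and C4bp were not called by edgeR. Clu encodes clusterin, which binds nascent terminal complexes in fluid and has other functions. It had 178, 833, 237 and 541 CPM in lesions at 1 month, against 66.9, 67, 84.1 and 92.4 CPM in eutopic uterus. Clu at 3 months had 879.7, 336, 724 and 511 CPM in lesions, against 111, 75.5, 76.7 and 66.5 CPM in eutopic uterus. No library overlapped at either time, and library 1 at 3 months had the highest level of all. For Clu the log2 fold changes were 2.55 ± 0.40 (adjusted p = 6.32e-04) and 2.90 ± 0.40 (adjusted p = 3.04e-05).

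Serping1, the C1 inhibitor that also stops MASP proteases, had 535, 665, 500.2 and 670.5 CPM in lesions at 1 month, against 318, 279, 295 and 264 CPM in eutopic uterus. Serping1 at 3 months had 107, 885, 553 and 1079.6 CPM in lesions, against 273, 276, 277 and 216 CPM in eutopic uterus. Lesions were above eutopic uterus in all libraries at 1 month and in all but library 1 at 3 months. For Serping1 the log2 fold change was 1.05 ± 0.37 (adjusted p = 0.04998) at 1 month, a call that every fit without 1 library lost, and 1.33 ± 0.38 (adjusted p = 0.00789) at 3 months, which all kept. With only lesions and eutopic uterus at 3 months in the fit, Serping1 was 1.35 ± 0.58 and was not called (adjusted p = 0.138, edgeR). Cfi, the protease that inactivates C3b and C4b, had 17.1, 33.9, 24.4 and 36.9 CPM in lesions at 1 month, against 6.22, 7.81, 8.37 and 12.6 CPM in eutopic uterus, with no overlap between the groups. At 3 months its lesion libraries were spread from 2.01 to 70.3 CPM, and neither difference was called (1.70 ± 0.76 and 1.07 ± 0.75, adjusted p = 0.116 and 0.268). Voom called Cfi higher at both times (adjusted p = 0.0116 and 0.0297). So did edgeR with only the compared groups at 1 month (1.68 ± 0.29, adjusted p = 0.00291) and without lesion libraries 1 and 2 at 3 months (1.96 ± 0.57, adjusted p = 0.00992). C4bp, a cofactor of factor I for C4b, had 0.143 to 1.05 CPM in lesions and 0.559 to 0.905 CPM in eutopic uterus at 1 month and was not called at either time.

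The 4 membrane regulators had a median log2 fold change of -0.34 at 1 month and -0.06 at 3 months. None was higher than in eutopic uterus at 1 month, while Cd46 and Cd59a were lower. At 3 months only Cr1l was higher, and none was lower. Against sham uterus at 1 month none of the 4 was called in either direction (smallest adjusted p = 0.336, edgeR). Cd59a, whose product blocks the addition of C9, had 20.8, 14.6, 19.2 and 19.8 CPM in lesions at 1 month, against 22.7, 32.6, 36.1 and 31.1 CPM in eutopic uterus, with no overlap. For Cd59a the log2 fold change was -0.71 ± 0.23 (adjusted p = 0.0344) at 1 month and -0.20 ± 0.23 (adjusted p = 0.501) at 3 months. Cd46, a cofactor for factor I known in mice mainly from the testis, had 6.43, 4.56, 4.45 and 4.9 CPM in lesions at 1 month, against 9.06, 9.95, 6.54 and 6.08 CPM in eutopic uterus, with overlap. Its log2 fold changes were -0.62 ± 0.21 (adjusted p = 0.038) and -0.49 ± 0.21 (adjusted p = 0.0624). Without lesion library 1 at 3 months Cd46 was called lower, at -0.57 ± 0.22 (adjusted p = 0.0391). The call of Cd46 at 1 month was lost in 5 of the 8 fits without 1 library, and that of Cd59a in 6.

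Cr1l, the broadly expressed mouse regulator Crry, had 78.5, 71.5, 79.4 and 88.1 CPM in lesions at 1 month, against 66.4, 72.3, 70.8 and 67.5 CPM in eutopic uterus. Cr1l at 3 months had 78, 118, 84.6 and 91.1 CPM in lesions, against 70.4, 82.3, 76 and 73.4 CPM in eutopic uterus. The groups overlapped at both times and the change was the smallest among the called genes. Its log2 fold changes were 0.21 ± 0.10 (adjusted p = 0.119) and 0.30 ± 0.10 (adjusted p = 0.0166), and at 3 months 0.17 ± 0.08 without library 2 (adjusted p = 0.0858). Cd55, which speeds the decay of convertases, had log2 fold changes of -0.06 ± 0.27 and 0.08 ± 0.27 and was not called.

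The receptor genes C3ar1, C5ar1 and C5ar2 were higher in lesions at both times, and Vsig4 had more reads in lesions but passed the filter only through them. C5ar1, the C5a receptor of myeloid cells, had 24.1, 36.7, 21.4 and 43.6 CPM in lesions at 1 month, against 7.31, 6.0, 7.0 and 9.3 CPM in eutopic uterus. C5ar1 at 3 months had 10.9, 63.5, 51.9 and 43.4 CPM in lesions, against 5.01, 6.52, 4.34 and 8.95 CPM in eutopic uterus. No lesion library overlapped eutopic uterus, and library 1 at 3 months lay just above it. For C5ar1 the log2 fold changes were 2.10 ± 0.38 (adjusted p = 0.00161) and 2.77 ± 0.39 (adjusted p = 3.45e-05). C3ar1, the receptor for C3a, had 60.5, 123, 53 and 129.8 CPM in lesions at 1 month, against 24.8, 24.2, 18 and 23.2 CPM in eutopic uterus, and 12, 264, 155 and 165 CPM in lesions at 3 months, against 17.4, 19.3, 15.8 and 35.3 CPM in eutopic uterus. Library 1 at 3 months lay below the eutopic range. Its log2 fold changes were 2.04 ± 0.53 (adjusted p = 0.0113) and 2.76 ± 0.54 (adjusted p = 5.46e-04).

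C5ar2, the second C5a receptor, was higher by 1.26 ± 0.42 (adjusted p = 0.0401) at 1 month and 1.70 ± 0.43 (adjusted p = 0.00374) at 3 months on the log2 scale, and its call at 1 month was lost in 7 of the 8 fits without 1 library. Vsig4, a receptor for C3b fragments known from tissue macrophages, had 1.83, 2.89, 0.625 and 2.75 CPM in lesions at 1 month, against 0, 0, 0.0496 and 0.0168 CPM in eutopic uterus, where it rested on 4 reads in all. Vsig4 at 3 months had 0.0932, 7.98, 1.43 and 1.9 CPM in lesions, against 0.0771, 0.0415, 0.0772 and 0.0178 CPM in eutopic uterus. The log2 fold changes of 6.74 ± 1.12 and 5.68 ± 1.01 thus rest on a few reads in eutopic uterus and are given without a p. Of 14 macrophage markers, 12 were called higher in lesions at 1 month and 13 at 3 months, and library 1 at 3 months was low for both the markers and most of these genes. T cell markers were called higher in 6 of 6 at both times and neutrophil markers in 6 of 8, with 1 neutrophil marker lower at 3 months. Among uterine groups 13 macrophage and 6 neutrophil markers passed the count filter. The rest of these 2 lists passed only with lesions in the fit and are included in the counts. The part of these cells in the receptor and C1q results was not tested.

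**Figure D5:**
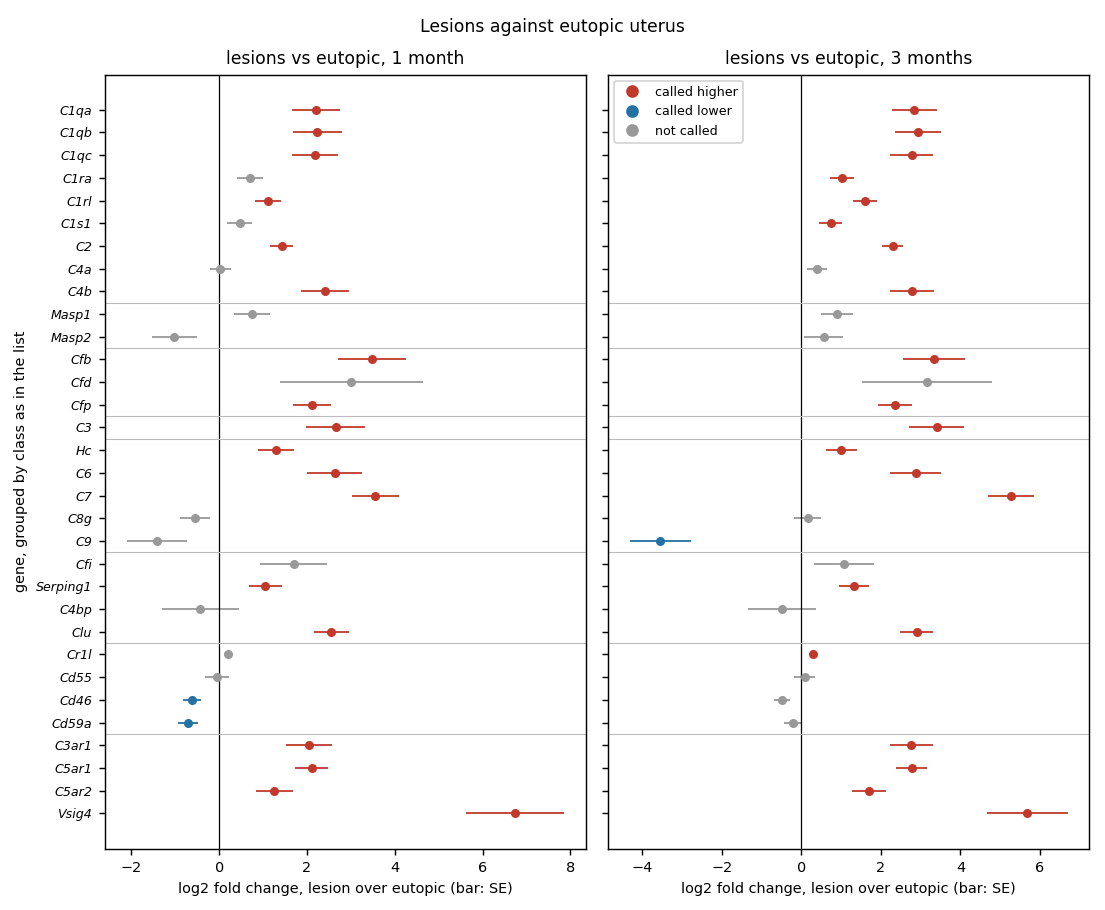
Log2 fold change of lesions over eutopic uterus for the 32 genes tested, with 1 SE as the bar, at 1 month on the left and 3 months on the right, in red where called higher, in blue where called lower and in grey otherwise. The x axes differ in range. Most classical, alternative, C3 and receptor genes lie to the right of 0 at both times, the membrane regulators lie near 0, and C9 at 3 months lies at -3.54.

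The 6 groups were also compared by summed levels within a class. The classical genes summed to 1923 ± 549 CPM in lesions, 749 ± 84.4 CPM in eutopic uterus and 768 ± 41 CPM in sham uterus at 1 month (SD, n = 4 each). At 3 months the sums were 2443 ± 1711, 682 ± 42.1 and 617 ± 128 CPM in the same order. Terminal components summed to 18.1 ± 7.58 CPM in lesions, 6.32 ± 0.739 CPM in eutopic uterus and 5.46 ± 1.1 CPM in sham uterus at 1 month, and to 30.3 ± 17.3, 6.49 ± 0.559 and 4.98 ± 1.27 CPM at 3 months. Eutopic and sham uterus lay close together in both classes. Lesions lay above them in every library of both classes, except for the classical sum of library 1 at 3 months. That sum of 393 CPM was below all eutopic and sham libraries of that time. The terminal sum of library 1 at 3 months was 25.2 CPM, above all eutopic and sham libraries. The lectin sums were 23.4 ± 4.49 CPM in lesions, 14.3 ± 3.33 CPM in eutopic uterus and 17.1 ± 1.75 CPM in sham uterus at 1 month, nearly all Masp1, and 26.9 ± 24.5, 14.4 ± 1.28 and 11.9 ± 5.69 CPM at 3 months. Alternative pathway sums were 252 ± 159.8 CPM in lesions, 38.2 ± 26.6 CPM in eutopic uterus and 29.5 ± 16.3 CPM in sham uterus at 1 month, and 228 ± 198, 32.2 ± 13.6 and 23.3 ± 11.8 CPM at 3 months. Cfd made up most of the lesion means. Cfp lay above Cfd in lesion library 2 at 1 month and in lesion libraries 1 and 4 at 3 months. For the lectin and alternative sums the SD of lesions at 3 months was close to the mean, with library 1 the highest of the 4 for the first and the lowest for the second.

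Library 1 set much of the overlap at 3 months. With it, the lesion libraries lay entirely above eutopic uterus for 7 of the 32 genes and entirely below for 1, where 10.1% and 13.8% of all genes did so. Without it, they did so for 22 and 1 genes, where 22.8% and 23.1% of all genes did. At 1 month, with all 4 libraries, the counts were 20 above and 1 below, where 17.0% and 14.5% of all genes did so. Vsig4, which passed the filter only through lesions, is included in the counts of 7, 22 and 20. With library 1 its place above eutopic uterus at 3 months rests on few reads. Fitting only lesions and eutopic uterus at 3 months called 11 of 31 genes, where 16.3% of all genes were called, and the same fit without library 1 called 21 of 32, where 37.7% were. The first of these fits lost the calls of C1qa, C1ra, C1s1, C4b, C3, Hc, C6, Serping1, Cr1l and C5ar2. Vsig4 is among the 21.

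No complement gene was called between eutopic and sham uterus at either time. At 1 month 0 of 31 genes were called by edgeR, where 0.00943% of all 21208 genes were called, and 0 had an unadjusted p under 0.05, where 4.81% of all genes did. At 3 months 0 of 31 were called, where 0% of all genes were called, and 2 had an unadjusted p under 0.05, where 4.77% of all genes did. DESeq2 called 0 at both times. C3 had 337, 374, 260.3 and 474 CPM in sham uterus at 1 month and 429.7, 170.2, 266 and 545 CPM at 3 months, which overlapped the eutopic values given above, and its eutopic over sham log2 fold changes were 0.24 ± 0.32 and -0.00 ± 0.32. C1s1 differed by -0.05 ± 0.13 and 0.12 ± 0.13, Cr1l by -0.08 ± 0.06 and 0.00 ± 0.06, and C3ar1 by 0.08 ± 0.24 and 0.42 ± 0.24. The difference of Cfd was 0.70 ± 1.57 and 1.04 ± 1.58, with an SE that allows changes of several fold in either direction.

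The genes with the smallest unadjusted p between eutopic and sham uterus at 1 month were Cd46 (0.32 ± 0.18, unadjusted p = 0.0925, edgeR), Serping1 (-0.22 ± 0.13, 0.101) and Cd59a (0.37 ± 0.21, 0.102). Serping1 had 318, 279, 295 and 264 CPM in eutopic uterus, against 346, 336, 328 and 336 CPM in sham uterus, and was the only complement gene whose groups did not overlap at that time, where 1.66% of all genes lay entirely lower. At 3 months they were C4bp (-1.63 ± 0.69, unadjusted p = 0.0318, edgeR), C1ra (0.30 ± 0.13, 0.0339) and Cfb (-1.21 ± 0.64, 0.0777). C4bp had 2.06, 0.913, 1.02 and 0.604 CPM in eutopic uterus at 3 months, against 0.384, 1.84, 3.34 and 8.62 CPM in sham uterus. Sham library 4 was the highest for C4bp, and it was also the highest for Cfb at 1.79 CPM and the lowest for Masp1 at 4.34 CPM and for C1qb at 28.1 CPM. The adjusted p of each gene named here was 0.876 at 1 month and 0.992 at 3 months.

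The lesion and eutopic difference was compared between the times by an interaction term. None of the 32 genes was called by edgeR, where 0.769% of all genes were, and 4 had an unadjusted p under 0.05, where 14.8% of all genes did, so the count is near the background. C7 had the smallest, with a difference 1.72 ± 0.70 larger at 3 months on the log2 scale (unadjusted p = 0.0231, adjusted p = 0.249, edgeR). C2 followed with 0.87 ± 0.36 (unadjusted p = 0.0263) and Masp2 with 1.58 ± 0.71 (unadjusted p = 0.0376). The fourth, C9, had -2.12 ± 0.99 (unadjusted p = 0.0442). The change for C3 was 0.75 ± 0.89. The counts of 21 and 18 genes called higher at the 2 times are thus not a test of a change. Without lesion library 3 at 3 months, C9 alone was called for this change. The eutopic and sham difference changed with time for 0 of 31 genes, where 0.00943% of all genes were called, and 0 had an unadjusted p under 0.05, where 3.47% of all genes did. In sham uterus alone, 0 of 31 genes were called between 3 months and 1 month, where 0% of all genes were called, and 8 had an unadjusted p under 0.05 by edgeR, where 10.7% of all genes did. The 3 smallest belonged to C1ra (-0.48 ± 0.13, unadjusted p = 0.00187), Serping1 (-0.47 ± 0.13, 0.00187) and C4bp (1.98 ± 0.70, 0.0124), each with an adjusted p of at least 0.295. Limma voom with sample weights called C1ra and Serping1 lower at 3 months, and so did edgeR without sham library 1 at 3 months.

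Against sham uterus, lesions had 16 of 32 genes higher and 0 lower at 1 month, where 9.46% and 5.53% of all genes were called. At 3 months 22 were higher and 1 was lower, where 23.2% and 18.4% of all genes were called. Vsig4, which passed the filter only through lesions, is included in the counts of 16 and 22. These comparisons share the lesion libraries with those against eutopic uterus. At 1 month C7 was 3.87 higher on the log2 scale against sham uterus and 3.55 against eutopic uterus, C2 1.78 and 1.43, Clu 2.43 and 2.55, and C3 2.89 and 2.65. At 3 months C7 was 5.86 and 5.28 higher and C3 3.40 and 3.40. Masp1 was called against sham uterus at 3 months (1.18 ± 0.41, adjusted p = 0.0264, edgeR), a call that leaving out lesion library 1 removed, while Cfd was then called.

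A further 23 complement genes outside the 36 were read from a list of other regulators, ficolins, collectins and integrin receptors, with 18 tested. In lesions at 1 month 6 were higher and 1 (C1qbp) was lower than in eutopic uterus, and at 3 months 9 were higher and 2 (C1qbp and Crp) were lower, against the shares of all genes given above. Cr2, the complement receptor of B cells, had 5.98, 9.17, 1.58 and 10.8 CPM in lesions at 1 month, against 0, 0.0847, 0 and 0.0168 CPM in eutopic uterus, where it rested on 6 reads in all. It passed the filter only through lesions and is included in the counts of 6 and 9. B cell markers were called higher in 5 of 5 and 4 of 5. Fcna, a ficolin of macrophages that starts the lectin route, was higher by 4.14 ± 0.75 (adjusted p = 0.00156) and 4.23 ± 0.75 (adjusted p = 2.39e-04). Its levels were 21.9, 16.9, 5.07 and 34.5 CPM in lesions at 1 month, against 0.824, 1.24, 1.59 and 0.838 CPM in eutopic uterus, so a lectin recognition gene outside the 36 was higher where the mannose-binding lectins were near 0. Itgb2, the shared integrin chain of complement receptors 3 and 4, was higher by 3.02 ± 0.70 (adjusted p = 0.00634) and 4.15 ± 0.74 (adjusted p = 2.39e-04). At 3 months lesions overlapped eutopic uterus for both Fcna and Itgb2. The lowest lesion level was 1.47 CPM for Fcna, against 0.925 to 1.56 CPM in eutopic uterus. For Itgb2 it was 11.1 CPM, below the eutopic range of 22.0 to 39.7 CPM. C1rb, the duplicate of C1ra, was higher by 1.94 ± 0.60 (adjusted p = 0.0267) at 1 month, and Colec11, a collectin of the lectin route, by 3.93 ± 0.61 (adjusted p = 7.87e-05) at 3 months. C1rb had 0.221 to 0.752 CPM in lesions at 1 month, against 0.0496 to 0.237 CPM in eutopic uterus, with overlap. It rested on 3 to 14 reads per eutopic library, and the split of reads between C1ra and C1rb is uncertain.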

How the data were processed

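RNA from 24 mouse libraries was measured in 6 groups of 4. The deposited table holds read counts per gene, made by the authors, with 56691 genes. Per the submitters' processing notes, bcl2fastq 1.9.0, STAR 2.7.9a, edgeR and genome build mm39 were used. Of the counter, the annotation and the strand setting nothing is known here, so reads of close copies and overlapping genes are uncertain. No batch is labelled. The labels do not tie libraries to animals, so p-values measure the spread between libraries and not between animals. In edgeR each gene had 1 spread, shared by all groups fitted together. The p-values for lesions thus do not measure the spread of lesion libraries alone. When lesions and eutopic uterus were fitted by themselves, edgeR calls fell to 11 at 3 months and rose to 24 at 1 month. For C4b at 3 months the adjusted p by edgeR went from 6.58e-04 to 0.0542.

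The counts were analysed with edgeR 4.0.16 in R 4.3.3 (TMM, filterByExpr by group, quasi-likelihood F-test on group means, with calls at 0.05 after Benjamini-Hochberg adjustment). Uterine comparisons used 16 libraries and 21208 genes, and comparisons with lesions all 24 libraries and 22249 genes. The standard error (SE) is the log2 fold change divided by the square root of F, and levels are CPM with TMM factors. The procedure was also run on simulated counts with the same spread in every group. Of 100 genes given a 2-fold change, it called 42 at 1 month and 37 at 3 months for lesions against eutopic uterus. For eutopic against sham uterus it called 57 and 61, so changes of this size can go uncalled. The simulation cannot show how the test behaves with the wider spread of lesions at 3 months. Total counts of 45133642 to 59407134 per library limit counting error, which rests on few reads below about 0.1 CPM.

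Alternatives were DESeq2 1.42.0, its size factors in edgeR, no filter, limma 3.58.1 voom with sample weights, a replicate term, other sets of libraries in the fit, and each library left out. Per-library values and full statistics were given for up to 8 called genes with the smallest adjusted p per comparison, for C3, and for the gene with the highest mean level of each class, with the 3 smallest unadjusted p where none was called. Values of other called genes, Cfi and the other genes described were added after they were seen. Members and lists were chosen with earlier results of these data known.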

Additional observations from a re-analysis of the deposited data

Results flagged for a closer look

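In 192 combinations of a gene and a group of 4 libraries, 9 had 1 library far from the other 3 by Dixon's criterion. Chance gives about 1 in 20, so 9 is no excess. In lesions at 3 months, library 1 was high for Masp1 (62 CPM) and for C8g (2.46 CPM), and low for C5ar2 (1.04 CPM). That library held 23171 CPM of ovarian steroidogenic cell markers, against 274, 42.4 and 65.4 CPM in libraries 2 to 4. Library 3 of the same group was high for C9 (0.635 CPM), against 0.0186 to 0.0698 CPM in the other 3. In lesions at 1 month, library 2 was high for C4a (1.72 CPM). In eutopic uterus at 1 month, library 1 was high for C1rl (7.29 CPM). In eutopic uterus at 3 months, library 1 was high for Cfi (25.1 CPM), library 2 was high for C7 (0.685 CPM), and library 4 was low for Serping1 (216 CPM).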

How the results depend on the processing

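Of 32 genes tested, the 20 called between lesions and eutopic uterus at 1 month were 20 by DESeq2, 19 with its size factors, 15 with no filter, 27 by voom, 18 with a replicate block, 24 with only the compared groups, and 14 to 17 with each library left out (14 without lesion library 2). At 3 months the 22 calls were 22 by DESeq2, 19 with no filter, 20 with a replicate block, 20 to 22 with each library left out and 22 without lesion libraries 1 and 2. They were 11 in a fit of the compared groups alone and 3 with a replicate block and only the compared groups. Against sham uterus at 3 months, 23 calls became 11 with only the compared groups, 21 with those groups and no lesion library 1, and 20 to 25 with each library left out. Vsig4, which passed the filter only through lesions, is among the 20, 22 and 23 calls. Except where given above, the share of all genes called in these alternative fits is not set beside the counts. A count can thus move because a fit calls more or fewer genes of the whole table, and it says nothing particular to complement. The labels do not tie numbers to animals. Same-numbered lesion and eutopic libraries had correlations of 0.0759 to 0.232 at 1 month and -0.0338 to 0.395 at 3 months, so not every pair passed 0.1, and 4 of 4 and 2 of 4 lesion libraries correlated best with their own number, a hint of pairing at 1 month from the data alone. Serping1 and C5ar2 lost their calls at 1 month with the block. The change of the lesion and eutopic difference had 0 calls and 0 to 1 with each library left out. Sham uterus between 3 months and 1 month had 0 calls, 2 by voom and 0 to 2 with each library left out. Eutopic against sham uterus had 0 calls under every alternative.

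Signs that reversed under an alternative all belonged to changes that were not called. With each library left out, eutopic over sham changes ran from -0.131 to 0.0253 for C1s1 and -0.0623 to 1.37 for Cfd at 1 month, and from -0.22 to 0.29 for C3, -0.0391 to 0.0418 for Cr1l and -0.024 to 0.203 for Serping1 at 3 months. Changes of the lesion and eutopic difference ran from -1.07 to 0.88 for Cfd, -0.72 to 0.40 for Masp1, -0.0285 to 0.171 for Cr1l and -0.0587 to 0.645 for Serping1. Changes of the eutopic and sham difference ran from -0.467 to 0.0491 for C3, -0.0105 to 0.762 for C7 and -0.38 to 2.32 for Cfd, and C3 in sham uterus from -0.32 to 0.19. The eutopic over sham change of C3 at 3 months was 0.0025 by DESeq2 and by its size factors, 0.0061 with no filter, 0.62 by voom, 0.041 with a replicate block and 0.0011 with all 24 libraries, and that of Cr1l was -0.014 by voom and -8.3e-05 with a replicate block. The change of the lesion and eutopic difference was -0.043 for Cfd and -0.76 for Masp1 by voom, -0.13 for Masp1 with a replicate block, and -0.57 for Cfd and -0.63 for Masp1 without lesion libraries 1 and 2 at 3 months. The change of the eutopic and sham difference of C3 was 0.53 by voom. The cause was not tested. The fit with a block and only the compared groups, and the one without lesion library 1, were added after the data were seen. The all-gene median stayed within 0.1 of 0 except -0.118 for lesions against sham uterus at 3 months. Genes near 0.1 CPM or below rest on few reads.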
